A study of Mus musculus with 7 samples.

Results

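Mature arms of miR-99a, miR-99b, miR-100, miR-125a and miR-125b were taken by name from small RNA libraries of mouse brain ventricles. They make up 10 of the 1914 mouse miRNA rows, and all 10 were among the 534 rows that passed the filter on low counts and were tested. The tissue was lateral ventricle with choroid plexus from adult C57BL/6J mice, and there were 4 TAp73 knockout and 3 wild type libraries. TAp73, the transactivating isoform of p73, is a transcription factor needed for motile cilia, and the study concerned brain multiciliogenesis. The labels do not describe the knockout allele or the exact age, and do not say whether a library was made from 1 animal or from several.

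Mouse miRNA reads ranged from 955057 to 9233235 in the knockout libraries and from 2211619 to 3647102 in the wild type libraries. Knockout replicate 3 was the shallowest. There, 3 reads corresponded to 3.14 counts per 1000000 mouse miRNA reads (CPM), against 0.325 to 1.36 CPM in the other libraries. Of the cell type marker lists, choroid plexus miRNAs (3 of 3 detected in every library, led by miR-204-5p) summed to 2016 to 7435 CPM in the knockouts, against 2015 to 11789 CPM in the wild types. The low sums were those of knockout replicate 3 (2016 CPM) and wild type replicate 2 (2015 CPM), while the other libraries lay at 5000 to 11789 CPM. Endothelial (1 of 2 markers at 0 in a library) and vessel wall markers were present in both genotypes at overlapping levels. The multiciliated cell list (miR-34b-5p, miR-34c-5p and miR-449a-5p) summed to 370 to 728 CPM in the knockouts, against 1250 to 3575 CPM in the wild types.

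A miRNA is cut from a hairpin precursor that holds a 5p and a 3p arm. Usually 1 of them is kept by the Argonaute protein and guides it to messenger RNAs through the seed, which covers bases 2 to 8. The miR-99 and miR-100 family is known in human cells for targeting MTOR, the kinase that couples nutrients to growth. The miR-125 family is the vertebrate counterpart of lin-4, a developmental timing RNA of Caenorhabditis elegans. It is abundant in the nervous system, where miR-125b is linked to neuronal differentiation, and in human cells and zebrafish miR-125b targets the messenger RNA of p53, a relative of p73. Members of both families lie in clusters with let-7 genes, an arrangement that is old in animal evolution.

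The mouse genome holds 3 such clusters (build GRCm38, GENCODE annotation). On chromosome 17, Mir99b (17830188 to 17830257), Mirlet7e (17830352 to 17830444) and Mir125a (17830812 to 17830879) lie within 692 bases on the plus strand. All 3 are inside the protein-coding gene Spaca6, transcribed in the same direction. Mir99b and Mirlet7e overlap no exon of its 16 annotated transcripts, and Mir125a overlaps an exon of 1 transcript. On chromosome 16, Mir99a (77598936 to 77599000), Mirlet7c-1 (77599657 to 77599750) and Mir125b-2 (77646273 to 77646343) spread over 47408 bases in introns of the non-coding gene Mir99ahg. On chromosome 9, Mir100 (41531425 to 41531504), Mirlet7a-2 (41536716 to 41536811) and Mir125b-1 (41581926 to 41582002) spread over 50578 bases in introns of the non-coding gene 3110039I08Rik. These host genes are on the plus strand, as are the miRNA genes. Other annotated genes overlap them too. Mir99a and Mirlet7c-1 also lie inside Gm11146, a protein-coding gene on the opposite strand. The chromosome 9 genes also lie inside the non-coding gene Gm49317 on the same strand. Mir125b-1 overlaps an exon of Gm28119 on the same strand, and Mir100 an exon of Gm48742 on the opposite strand. The 5p arm of miR-125b is identical from both of its genes, so its reads cannot be assigned to chromosome 9 or 16, while its 3p arms differ.

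The mature sequences from RefSeq (GRCm38.p6) were available for all 10 arms. They are shown 5′ to 3′ with the seed in capitals, first the 5p arms by seed and then the 3p arms, since the values below follow these groups.
mmu-miR-99b-5p: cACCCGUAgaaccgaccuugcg
mmu-miR-99a-5p: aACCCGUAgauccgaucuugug
mmu-miR-100-5p: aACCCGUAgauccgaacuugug
mmu-miR-125a-5p: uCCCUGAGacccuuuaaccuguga
mmu-miR-125b-5p: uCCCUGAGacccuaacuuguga
mmu-miR-99b-3p: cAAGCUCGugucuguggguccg
mmu-miR-99a-3p: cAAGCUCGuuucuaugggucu
mmu-miR-125a-3p: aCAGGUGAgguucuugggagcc
mmu-miR-125b-1-3p: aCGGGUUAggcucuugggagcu
mmu-miR-125b-2-3p: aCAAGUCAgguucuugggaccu

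The 5p arms of miR-99a, miR-99b and miR-100 share 1 seed, which no other mouse row with a RefSeq sequence carried. Counting from 1 at the 5′ end, miR-99a-5p and miR-100-5p differ by the substitution U16A alone. From miR-99a-5p to miR-99b-5p there are 4 substitutions, A1C, U11A, U16C and U21C. How reads with mismatches were assigned is not stated, so the split between miR-99a-5p and miR-100-5p is less certain than their sum. miR-125a-5p and miR-125b-5p are identical over their first 13 bases and share the second seed. That seed was also carried by miR-351-5p, at 294 CPM on average, and by miR-6367 and miR-6394, listed at 0 reads in all 7 libraries, so the 2 members held 99.5% of its reads. The 3p arms of miR-99a and miR-99b share a seed, while the 3p arms of the miR-125 genes have 3 different ones.

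Together the 10 arms took 15.5%, 16.02%, 18.9% and 17.6% of mouse miRNA reads in knockout replicates 1 to 4. They took 17.4%, 15.4% and 16.1% in wild type replicates 1 to 3. The means were 17.01% ± 1.55 in the knockouts (SD, n = 4) and 16.3% ± 1.004 in the wild types (SD, n = 3), and the groups overlapped. The 5p arms supplied nearly all of this, at 99.38% ± 0.11 of member reads in the knockouts and 99.37% ± 0.054 in the wild types. By mean CPM over the 7 libraries, the 5p arms of miR-99b, miR-125b, miR-100, miR-125a and miR-99a ranked 3, 5, 6, 12 and 23 among the mouse rows. Reads of different miRNAs are compared here as reads, since the recovery of each sequence by the library kit was not measured.

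miR-99b-5p, from the Spaca6 cluster, was the most abundant of them. It stood at 53642, 60081, 76559 and 69832 CPM in knockout replicates 1 to 4, and at 76407, 60463 and 60699 CPM in wild type replicates 1 to 3. Knockout replicate 3 and wild type replicate 1 were both high, knockout replicate 1 was low, and the groups overlapped throughout. The next family member, miR-100-5p from chromosome 9, stood at 32670, 33853, 40143 and 39750 CPM in the knockouts, against 42906, 30446 and 37555 CPM in the wild types. The wild types held both its lowest and its highest value. miR-99a-5p from chromosome 16 was the least abundant, at 6818, 7230, 9843 and 7714 CPM in the knockouts, against 8528, 6864 and 6467 CPM in the wild types. Knockout replicate 3 was its highest library and wild type replicate 3 its lowest.

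Within this seed family the division of reads was steady. miR-99b-5p held 59.3% ± 1.21 of the reads of the 3 arms in the knockouts (SD, n = 4) and 59.9% ± 1.94 in the wild types (SD, n = 3). miR-100-5p held 33.5% ± 1.39 in the knockouts, against 33.5% ± 2.36 in the wild types. miR-99a-5p held 7.21% ± 0.50 in the knockouts, against 6.62% ± 0.42 in the wild types. In every library miR-99b-5p exceeded miR-100-5p, by 1.64- to 1.91-fold in the knockouts and 1.62- to 1.99-fold in the wild types, and miR-100-5p exceeded miR-99a-5p, by 4.08- to 5.15-fold in the knockouts and 4.44- to 5.81-fold in the wild types. The order of the 3 arms was therefore the same in all 7 libraries.

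In the miR-125 family, miR-125b-5p, which has 2 genes, stood at 40249, 39021, 40579 and 39220 CPM in knockout replicates 1 to 4. It stood at 31289, 37628 and 37205 CPM in wild type replicates 1 to 3. All 4 knockouts lay above all 3 wild types, and wild type replicate 1 was well below the others. Its level overlapped that of miR-100-5p, and these neighbours in the order of levels changed places between libraries. miR-125a-5p, from 1 gene in the Spaca6 cluster, stood at 20648, 18904, 21292 and 18046 CPM in the knockouts, against 13397, 17272 and 17889 CPM in the wild types. Here too the groups did not overlap, by a margin of 18046 against 17889 CPM at the closest, and wild type replicate 1 was again the lowest. miR-125b-5p held 66.9% ± 1.31 of the reads of the pair in the knockouts (SD, n = 4) and 68.7% ± 1.25 in the wild types (SD, n = 3).

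**Figure D1:**
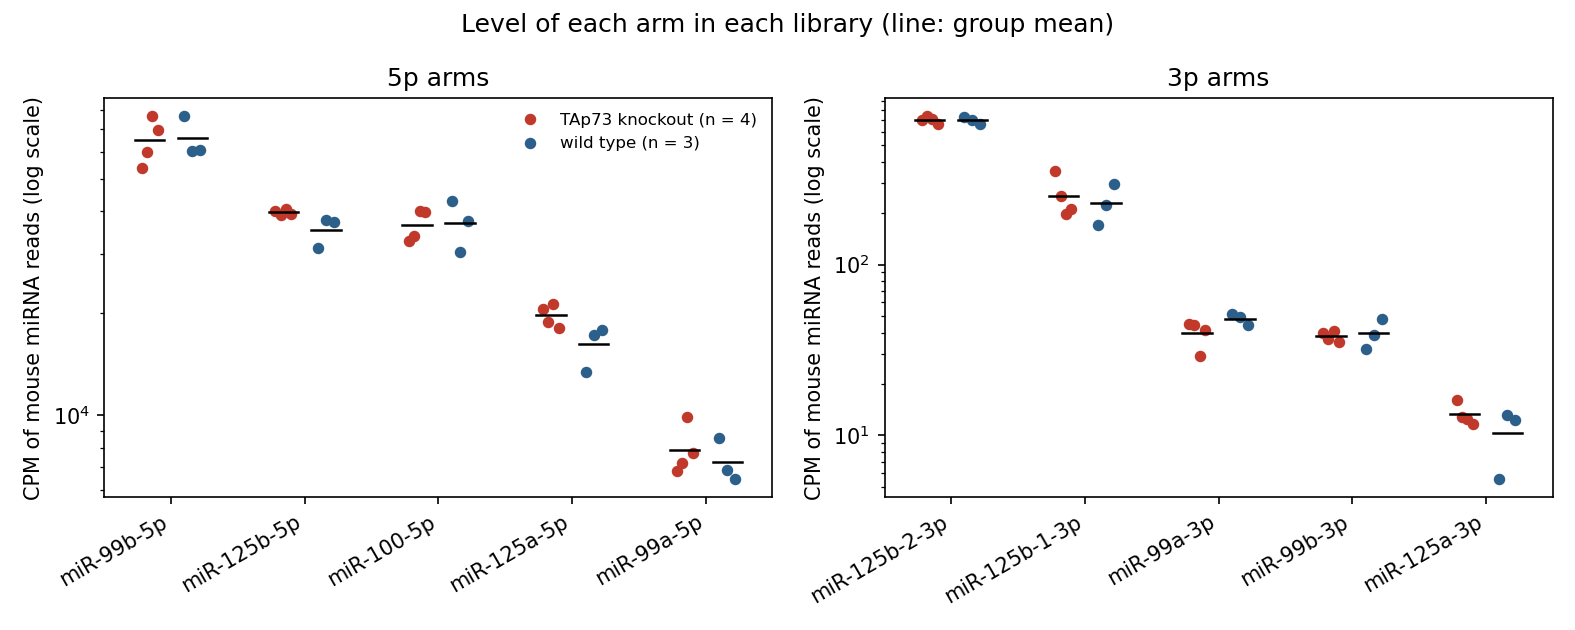
CPM of mouse miRNA reads (log axis) of the 5p arms (left) and 3p arms (right) in each of the 4 TAp73 knockout and 3 wild type libraries, with lines at the group means. For miR-125b-5p and miR-125a-5p the knockout points all lie above the wild type points, and for the other 8 arms the groups overlap.

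The 3p arms ran far below their partners, by factors that differed between genes. miR-125b-2-3p stood at 704, 739, 715 and 663 CPM in the knockouts, against 730, 699 and 667 CPM in the wild types, and it was the steadiest of the 10 arms with a coefficient of variation of 4.15% over the 7 libraries. miR-125b-1-3p stood at 353, 251, 197 and 211 CPM in the knockouts, against 171, 223 and 297 CPM in the wild types, and its coefficient of variation was 25.9%. The 2 arms come from precursors of 1 identical 5p arm, and the chromosome 16 copy gave 73.9% ± 5.11 of their reads in the knockouts (SD, n = 4) and 75.3% ± 5.92 in the wild types (SD, n = 3). That share ran from 66.6% in knockout replicate 1 to 78.4% in knockout replicate 3, and from 69.2% in wild type replicate 3 to 81.0% in wild type replicate 1.

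The other 3p arms were scarce. miR-99a-3p stood at 44.7, 44.2, 29.3 and 41.5 CPM in the knockouts and 51.2, 49.3 and 44.1 CPM in the wild types, with knockout replicate 3 lowest on 28 reads. miR-99b-3p ranged from 35.0 to 40.8 CPM in the knockouts and from 31.9 to 48.3 CPM in the wild types. miR-125a-3p ranged from 11.6 to 16.1 CPM in the knockouts and from 5.56 to 13.1 CPM in the wild types, where wild type replicate 1 was lowest on 15 reads. The 3p arms of miR-99a and miR-99b were thus close to each other in level although their 5p partners differed 7.78- to 9.39-fold. miR-100-3p, which is not among the 10 arms and was added after its values were seen, had 104 reads over the 7 libraries.

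The share of 3p reads fell into 4 levels over the 5 miRNAs. The summed 3p arms of miR-125b made up 2.35% ± 0.19 of the reads of both arms in the knockouts (SD, n = 4) and 2.57% ± 0.21 in the wild types (SD, n = 3). The 3p arm of miR-99a made up 0.523% ± 0.16 in the knockouts and 0.662% ± 0.060 in the wild types. miR-125a and miR-99b, the members from Spaca6, were lower again. miR-125a was at 0.0673% ± 0.0081 in the knockouts and 0.0621% ± 0.018 in the wild types, and miR-99b was at 0.0596% ± 0.011 in the knockouts, against 0.0618% ± 0.019 in the wild types. miR-100 was lowest, at 0.00941% ± 0.0044 in the knockouts (SD, n = 4), against 0.00726% ± 0.00062 in the wild types (SD, n = 3), on 3 to 48 reads of miR-100-3p a library. In every library miR-125b was above miR-99a, miR-99a above both Spaca6 members and these above miR-100, while miR-125a and miR-99b changed order between libraries. In knockout replicate 3 the 95% exact binomial interval of the miR-125a share was 0.0305% to 0.103% and that of miR-99b 0.0379% to 0.0729%. In knockout replicate 1, the deepest library, they were 0.0661% to 0.0917% and 0.0665% to 0.0818%. The intervals overlapped in every library, so these shares were not told apart in any of them. Among the 159 mouse miRNAs whose arms both passed the filter, 83 had more 5p than 3p reads, and miR-100, miR-99b, miR-125a, miR-99a and miR-125b ranked 2, 4, 6, 15 and 33 from the most 5p-weighted.

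The precursors of the miR-125 pair, available from RefSeq (GRCm38.p6) for Mir125b-1 and Mir125a, are shown 5′ to 3′ with the annotated arms in capitals, because 5p arms of 1 seed lie opposite 3p arms of different seeds. A 3p share of Mir125b-1 alone cannot be given, since its 5p reads are not separable from those of Mir125b-2.
Mir125b-1 (chr9:41581926-41582002, plus strand): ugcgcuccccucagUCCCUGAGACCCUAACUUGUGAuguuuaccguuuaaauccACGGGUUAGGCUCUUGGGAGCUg
Mir125a (chr17:17830812-17830879, plus strand): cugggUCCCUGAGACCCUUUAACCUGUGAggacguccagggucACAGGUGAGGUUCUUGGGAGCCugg

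**Figure D2:**
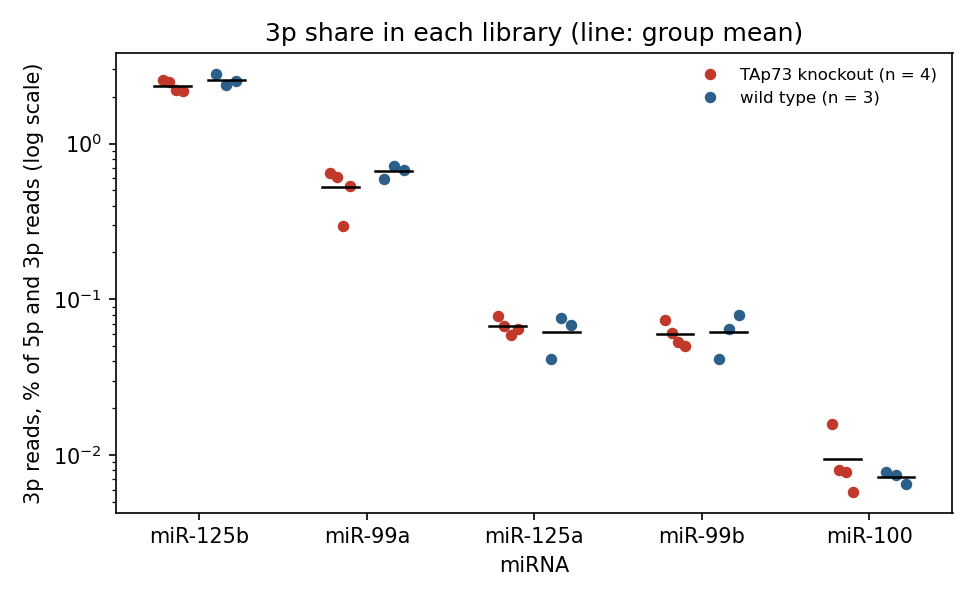
The share of 3p reads among the 5p and 3p reads of each miRNA (percent, log axis) in each library, with lines at the group means; the 3p arms of both miR-125b genes are summed. miR-125b averages 2.35% in the knockouts and 2.57% in the wild types, miR-99a between 0.297% and 0.713%, miR-125a and miR-99b below 0.08%, and miR-100 at 0.0159% or less, in all libraries.

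Arm use was then compared between genotypes on the log2 ratio of 5p to 3p reads with limma, over all 159 pairs. No pair passed at an adjusted p under 0.05 (0% of pairs), and 6 pairs (3.77%) had an unadjusted p under 0.05, with none of the 5 miRNAs among them. The groups did not overlap for 13 pairs (8.18%), again with none of the 5 miRNAs among them. An edgeR interaction fit on the same pairs also called 0, with 4 at an unadjusted p under 0.05. miR-99a had the widest difference among the 5 miRNAs, with 5p to 3p ratios of 152, 164, 336 and 186 in the knockouts, against 167, 139 and 146 in the wild types. Knockout replicate 3 stood far above the rest, and the groups overlapped. The difference was 0.40 ± 0.27 (log2, knockout minus wild type ± SE; limma adjusted p = 0.77), and 0.15 without knockout replicate 3. The differences for miR-125b, miR-99b, miR-125a and miR-100 were 0.13 ± 0.11, 0.02 ± 0.25, -0.15 ± 0.27 and -0.26 ± 0.43, with limma adjusted p from 0.80 to 0.99. The 95% intervals were -0.11 to 0.38 for miR-125b, -0.53 to 0.57 for miR-99b, -0.74 to 0.44 for miR-125a and -1.22 to 0.70 for miR-100. Differences of any size within those bounds are compatible with these values. The sign for miR-125a turned without wild type replicate 1, at 0.11, and that for miR-99b turned under several choices of libraries.

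Levels were compared between knockouts and wild types with edgeR's quasi-likelihood test over all 534 rows, where 6 rows passed (1.12%), and none of the 10 arms did. DESeq2, which called 14 of the 440 rows it gave an adjusted p (3.18%), and limma-voom, which called 5 of 534 (0.936%), also called 0 of the 10. Of the 10 arms, 2 had an unadjusted edgeR p under 0.05, both of them higher in the knockouts (12.9% of all rows in either direction, 6.18% higher). These were miR-125a-5p and miR-125b-5p, the arms whose groups did not overlap (11.8% of all rows in either direction, 3.56% higher). The log2 fold change was positive for 9 of the 10 arms, against 47.2% of all rows. The median of the 10 was 0.14. With library totals in place of TMM scaling, 6 of the 10 were positive, and the median over all rows moved from -0.02 to -0.10. Only miR-125a-5p then kept an unadjusted edgeR p under 0.05, at a log2 fold change of 0.29. The TMM factors were 0.968 to 0.983 in the knockouts and 1.007 to 1.072 in the wild types. The edgeR fold changes are therefore larger than the ratios of the CPM means.

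For miR-125a-5p the means were 19723 ± 1505 CPM in the knockouts (SD, n = 4), against 16186 ± 2435 CPM in the wild types (SD, n = 3). The edgeR log2 fold change was 0.37 ± 0.12 (knockout minus wild type ± SE), or 1.29-fold with a 95% interval of 1.07 to 1.55, and the adjusted p was 0.28. For miR-125b-5p the means were 39767 ± 763 CPM in the knockouts, against 35374 ± 3544 CPM in the wild types. Its log2 fold change was 0.25 ± 0.10, or 1.19-fold with an interval of 1.02 to 1.39 (edgeR adjusted p = 0.38). Both values were smaller without wild type replicate 1, where miR-125a-5p was at 0.24 (adjusted p = 0.56) and miR-125b-5p at 0.16 (adjusted p = 0.68), both still positive. Summed, the miR-125 5p arms took 6.09%, 5.79%, 6.19% and 5.73% of mouse miRNA reads in knockout replicates 1 to 4, against 4.47%, 5.49% and 5.51% in wild type replicates 1 to 3. The miR-99 and miR-100 5p arms took 9.31% to 12.7% in the knockouts and 9.78% to 12.8% in the wild types, where the groups overlapped.

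The neuronal marker list was also higher in the knockouts without overlap, and no other marker list was. The oligodendrocyte, leukocyte, erythrocyte, and pituitary and hypothalamus lists overlapped. The neuronal list of miR-124-3p, miR-128-3p and miR-132-3p, 3 of 3 detected in every library, summed to 30297 to 32310 CPM in the knockouts. In wild type replicates 1 to 3 it summed to 22719, 29089 and 16772 CPM, and 0 of the 3 were called. Its lowest library was thus wild type replicate 3, while both miR-125 5p arms were lowest in wild type replicate 1. The multiciliated list was lower in the knockouts, with 3 of 3 called. The skeletal and heart muscle list was also lower without overlap, at 3.09 to 5.85 CPM in the knockouts and 6.85 to 9.27 CPM in the wild types, and 2 of its 3 markers were at 0 in at least 1 library. Their part in the miR-125 values, and in those of let-7 given further on, was not tested. In such tissue libraries, fewer cells of a type and less of a miRNA per cell cannot be told apart.

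The miR-99 and miR-100 arms gave fold changes near 1. The log2 fold change was 0.05 ± 0.15 for miR-99b-5p, 0.06 ± 0.14 for miR-100-5p and 0.19 ± 0.16 for miR-99a-5p (edgeR adjusted p = 0.87, 0.86 and 0.65). Their 95% intervals in fold were 0.832 to 1.30, 0.847 to 1.29 and 0.896 to 1.45. With library totals alone the signs of miR-99b-5p and miR-100-5p turned, at -0.02 and -0.01. Whether the change of the miR-125 arms differs from that of the miR-99 and miR-100 arms was not tested. miR-99a-5p moved to 0.07 without knockout replicate 3, 0.08 without wild type replicate 3, while leaving out wild type replicate 1 gave 0.32. Among the 3p arms, miR-125a-3p was at 0.47 ± 0.30, miR-125b-1-3p at 0.23 ± 0.23 and miR-125b-2-3p at 0.09 ± 0.12, and their order depended on single libraries. miR-125a-3p was at 0.17 without wild type replicate 1, and miR-125b-1-3p at 0.0080 without knockout replicate 1, 0.045 without wild type replicate 1, while leaving out wild type replicate 3 gave 0.42. miR-99b-3p was at 0.01 ± 0.18, turning to -0.07 with library totals alone, and miR-99a-3p was the only one below 0, at -0.16 ± 0.19. The adjusted p of the 3p arms ran from 0.55 to 0.98.

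**Figure D3:**
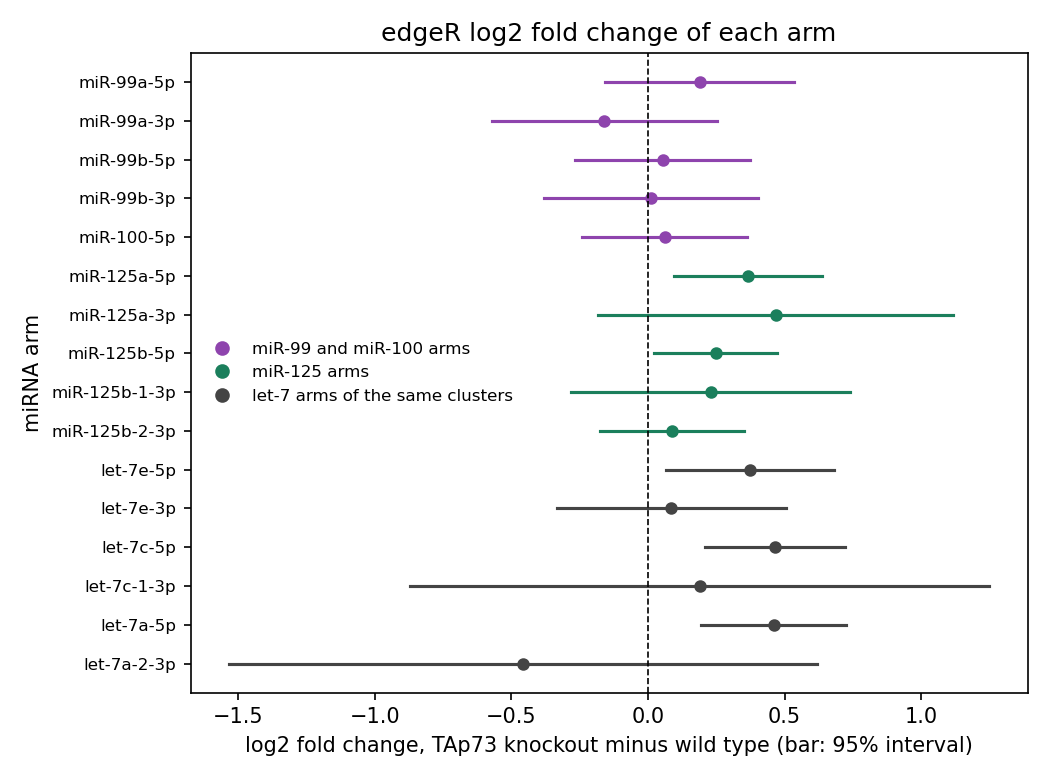
edgeR log2 fold change of each arm, TAp73 knockout minus wild type, with its 95% interval, for the 10 arms and the 6 let-7 arms of the same clusters. The intervals of miR-125a-5p, miR-125b-5p and the 3 let-7 5p arms lie above 0, and no arm shown passed the adjusted threshold over all 534 rows.

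The reads of the Spaca6 cluster were close to those of the other members combined. miR-99b and miR-125a together held 47.9%, 49.3%, 51.7% and 50.1% of the reads of the 10 arms in knockout replicates 1 to 4. They held 51.8%, 50.6% and 48.9% in wild type replicates 1 to 3. The means of 49.8% ± 1.57 in the knockouts (SD, n = 4) and 50.4% ± 1.45 in the wild types (SD, n = 3) lay within 1 SD of each other. Within the cluster the ratio of its products was less steady. miR-99b-5p exceeded miR-125a-5p by 2.60-, 3.18-, 3.60- and 3.87-fold in the knockouts and by 5.70-, 3.501- and 3.39-fold in the wild types, with wild type replicate 1 highest. miR-99b-5p exceeded let-7e-5p, the third product of the same 692 bases, by 41.2- to 57.0-fold in the knockouts and 49.7- to 81.6-fold in the wild types. The ratio of miR-125a-5p to let-7e-5p varied less, from 13.6 to 17.9 in the knockouts and from 14.3 to 18.1 in the wild types.

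Across the 7 libraries, 5p arms of 1 seed lay closer together than 5p arms of different seeds. Each arm's log2 CPM was centred on its mean over the 7 libraries, and likeness was taken as the root mean square difference between 2 arms, which does not depend on the scaling of libraries. The 4 pairs of arms with 1 seed differed by 0.09 to 0.15. The 6 pairs with different seeds differed by 0.24 to 0.32. The 3 pairs from a shared cluster all have different seeds, with miR-99b-5p and miR-125a-5p at 0.32, miR-100-5p and miR-125b-5p at 0.24 and miR-99a-5p and miR-125b-5p at 0.24. No pair shares both a seed and a cluster. Among pairs from different clusters, those with 1 seed differed by 0.09 to 0.15. Those with different seeds differed by 0.25 (miR-99b-5p and miR-125b-5p), 0.29 (miR-125a-5p and miR-99a-5p) and 0.31 (miR-125a-5p and miR-100-5p). The part of seed and of cluster was not tested. The reads of miR-125b-5p cannot be assigned to either of its clusters. How reads with mismatches were divided between arms of 1 seed is not stated, and its part in these values was not tested. For comparison, the median over 18721 pairs of other miRNAs with a mean of at least 100 CPM was 0.31, and their 5th percentile was 0.14, below the 0.15 of miR-99a-5p and miR-100-5p. In wild type replicate 1 the families stood furthest apart, and there the miR-99 and miR-100 arms stood 0.17 to 0.24 above their means while miR-125a-5p and miR-125b-5p stood at -0.43 and -0.27. Without that library the farthest pair of 1 seed differed by 0.16 and the closest pair of different seeds by 0.14, so the ranges overlapped, while 3 of the 4 pairs of 1 seed still lay below all pairs of different seeds. Without each other library in turn the ranges stayed apart, by the least without knockout replicate 1, where the gap was 0.059 against 0.090 with all 7 libraries.

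**Figure D4:**
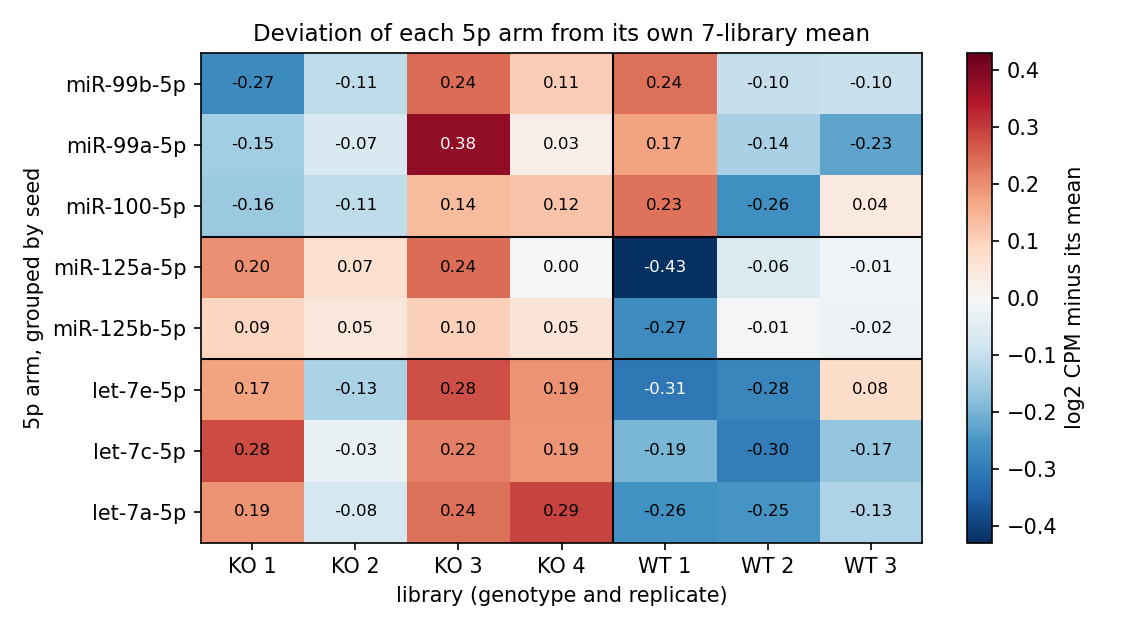
Deviation of each 5p arm's log2 CPM from its own mean over the 7 libraries, with arms grouped by seed (miR-99 and miR-100, miR-125, let-7) and knockout libraries left of wild type libraries. In wild type replicate 1 miR-99b-5p is at 0.24 and miR-125a-5p at -0.43, although both come from the same cluster.

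By the same measure, the miRNAs outside the family closest to each 5p arm were named from 194 candidates. The nearest to miR-99a-5p were miR-9-3p (0.09), let-7b-3p (0.10) and miR-191-5p (0.11). For miR-99b-5p they were miR-9-3p (0.11), miR-24-3p and miR-148b-3p (0.13 each). For miR-100-5p they were miR-501-3p, miR-192-5p and miR-340-5p (0.14 each). miR-151-5p was the nearest to both miR-125 arms, at 0.11 for miR-125a-5p and 0.07 for miR-125b-5p. It was followed by let-7f-5p (0.13) and miR-92a-3p (0.14) for miR-125a-5p and by miR-378a-3p and let-7g-5p (0.10 each) for miR-125b-5p. The lists of the miR-99 and miR-100 arms and of the miR-125 arms shared no name. Some of these were closer than a seed partner, such as miR-9-3p to miR-99a-5p (0.089, against 0.097 for miR-99b-5p) and miR-151-5p to miR-125b-5p (0.066, against 0.093 for miR-125a-5p).

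The let-7 genes of the clusters give miRNAs that restrain growth programmes in differentiated tissue. Of their 6 arms, 0 passed the edgeR test, 3 had an unadjusted p under 0.05 (6.18% of all rows were higher at that level) and 2 did not overlap between groups (3.56% of all rows were higher without overlap), all of these higher in the knockouts. DESeq2 called 2 of the 6, let-7a-5p (DESeq2 adjusted p = 0.035) and let-7c-5p (DESeq2 adjusted p = 0.018), against 3.18% of all its rows, and limma-voom called 0, against 0.936%. let-7e-5p of the Spaca6 cluster stood at 1304, 1055, 1402 and 1324 CPM in the knockouts, against 936, 953 and 1222 CPM in the wild types, with groups that overlapped through knockout replicate 2. Its log2 fold change was 0.37 ± 0.14 (edgeR adjusted p = 0.36), close to that of miR-125a-5p. let-7c-5p stood at 8402, 6777, 8041 and 7879 CPM in the knockouts, against 6041, 5633 and 6158 CPM in the wild types. let-7a-5p stood at 6813, 5655, 7026 and 7291 CPM in the knockouts, against 4976, 5005 and 5440 CPM in the wild types. In both, all knockouts lay above all wild types and knockout replicate 2 was the lowest knockout. let-7c-5p and let-7a-5p, each with a further gene outside these clusters, had log2 fold changes of 0.47 ± 0.12 and 0.46 ± 0.12 (edgeR adjusted p = 0.10 and 0.13).

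The let-7 3p arms tell the copies of these genes apart. let-7c-1-3p and let-7a-2-3p, from the clusters on chromosomes 16 and 9, averaged 2.77 CPM in both genotypes for let-7c-1-3p, and 2.54 CPM in the knockouts and 4.14 CPM in the wild types for let-7a-2-3p. The joined row of the copies outside the clusters, let-7a-1-3p with let-7c-2-3p, averaged 77.1 ± 7.80 CPM in the knockouts (SD, n = 4) and 81.8 ± 14.3 CPM in the wild types (SD, n = 3). let-7e-3p averaged 25.0 ± 2.40 CPM in the knockouts and 25.0 ± 3.93 CPM in the wild types. The log2 fold changes of let-7e-3p, let-7c-1-3p and let-7a-2-3p were 0.09 ± 0.19, 0.19 ± 0.48 and -0.46 ± 0.49 (edgeR adjusted p from 0.73 to 0.87). let-7a-2-3p was at -0.0092 without wild type replicate 1, while leaving out wild type replicate 2 gave -0.78. With 1 to 35 reads a library, the 95% intervals in fold ran from 0.546 to 2.38 for let-7c-1-3p and from 0.345 to 1.53 for let-7a-2-3p. Differences of any size within those bounds are compatible with these values.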

How the data were processed

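Per the labels' protocols, RNA extracted with phenol and chloroform went into TruSeq small RNA library preparation. The authors deposited raw read counts per named small RNA, 1 table a library. Tools named without a role are bcl2fastq 2.17.1.14 and DESeq2, with the build mm10, per the submitters' processing notes. Aligner and counter: not given in the sources used here. No molecular identifiers are stated, so intervals and floors cover counting error only. Groups follow the labelled genotype, and since no label says that libraries are separate animals, p-values measure only spread among the libraries, which may be technical.

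Levels are CPM of all mouse miRNA reads. All 1914 mouse rows entered edgeR 4.0.16 in R 4.3.3 (filterByExpr with minimum count 10 and minimum total 15, TMM, robust quasi-likelihood test, Benjamini-Hochberg adjustment over 534 rows). Arm ratios were log2 of 5p over 3p reads, each plus 0.5, tested with limma 3.58.1 over 159 pairs. In both fits the threshold was an adjusted p of 0.05. Both were also run on simulated counts built from the means of these libraries. There the arms of a library were drawn independently, so the pairing of real arms was not covered. Members, marker lists and rules were chosen with earlier results of these data known. Named are the 10 members, the let-7 arms of their clusters, and for each 5p member the 3 nearest miRNAs of at least 100 CPM. The alternatives were DESeq2 1.42.0, limma-voom, other scalings, filters and pseudocounts, summed species rows, other library subsets and an edgeR arm interaction.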

Additional observations from a re-analysis of the deposited data

Results flagged for a closer look

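Of 48 quantities compared within the knockout group, 1 had a library whose gap to its nearest neighbour was unusually wide; about 1 in 20 such groups show this by chance. The ratio of miR-99a-3p to miR-99b-3p reads was 0.718 in knockout replicate 3, from 28 and 39 reads, and 1.13 to 1.21 in the other 3 knockouts. The gap was 0.842 of the group's range. Knockout replicate 3 was also the shallowest library and the knockout lowest in choroid plexus miRNAs. With 3 members, the wild type group was too small for the same comparison.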

How the results depend on the processing

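None of the 10 arms was called under any of the 17 alternatives. The number of called miRNAs among all rows was 6 of 534 tested. It became 14 of 440 with DESeq2, 19 of 1284 with no filter and 5 of 534 with limma-voom. Without knockout replicate 3 and wild type replicate 2 together, the libraries lowest in choroid plexus miRNAs, it was 19 of 538. When single libraries were left out it ran from 3 of 543 (without wild type replicate 1) to 14 of 547 (without wild type replicate 2). let-7c-1-3p gave a value in 13 and let-7a-2-3p in 15 of the 17. The log2 fold changes of miR-125a-5p, miR-125a-3p, miR-125b-5p, miR-125b-1-3p and miR-125b-2-3p stayed positive under all 17, from 0.24 to 0.43 for miR-125a-5p and from 0.16 to 0.32 for miR-125b-5p. Signs turned for several values, and not only for those near 0. Among them were miR-99a-5p and let-7c-1-3p, each at 0.19 in the main fit, and the miR-125a ratio, at -0.15. With library totals alone miR-99b-5p was at -0.018, miR-99b-3p at -0.073 and miR-100-5p at -0.014. With the 4 libraries of consecutive title numbers miR-99a-5p was at -0.066, miR-99b-5p at -0.20, miR-100-5p at -0.074 and the arm ratio of miR-99b at -0.37. Without knockout replicate 3 and wild type replicate 2 together miR-99b-5p was at -0.063, miR-99b-3p at -0.0092, miR-100-5p at -0.082 and the miR-99b ratio at -0.078. When single libraries were left out, values ran from -0.032 to 0.18 for miR-99b-5p, from -0.13 to 0.15 for miR-99b-3p, from -0.034 to 0.18 for miR-100-5p, from -0.038 to 0.17 for let-7e-3p, from -0.14 to 0.56 for let-7c-1-3p, from -0.18 to 0.28 for the miR-99b ratio and from -0.31 to 0.11 for the miR-125a ratio, which was at -0.36 without knockout replicate 3 and wild type replicate 2 together. The causes were not tested. The gap between the closest pair of different seeds and the farthest pair of 1 seed was 0.090. It ran from -0.019 (without wild type replicate 1) to 0.13 when single libraries were left out, a comparison added after seeing the data. The Spaca6 share moved by less than 1 SD under each alternative tried. No arm pair was called under any alternative. No paired analysis was made, because the genotypes share no title number and no label pairs their libraries. Depth limits the 3p arms, of which miR-125a-3p had 12 reads in knockout replicate 3.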
